A study of Mus musculus with 12 samples.

Results

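The 9 genes described here are the homeobox and SOX regulators of the eye field and inner retina: Pax6, Six3, Six6, Rax, Lhx2, Sox2, Meis1, Meis2 and Prox1. They were taken by gene symbol from tables of 37991 mouse genes, 34964 of them autosomal, and all 9 were present, autosomal and above the filters on low values of every comparison. The libraries came from adult retina of male mice aged 8 weeks and fell into 4 groups of 3, each library a separate pool of 6 to 8 retinas. F0 C57BL/6J is the inbred reference strain and F0 Cast/EiJ a wild-derived inbred strain. F1 B6xCast mice had a C57BL/6J father and a Cast/EiJ mother, and F1 CastxB6 mice the reverse. No group was treated. The F0 groups were read in 1 lane and the F1 groups in 2, and between 8158534 and 12363291 hits per library were assigned to a single gene, and in F1 to a single allele. In the F1 males, which take their X chromosome from the mother, Cast/EiJ held 99.4% to 99.5% of X-linked hits in F1 B6xCast and 0.468% to 0.501% in F1 CastxB6.

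Eye development starts from a field of cells in the anterior neural plate that expresses Rax, Pax6, Six3, Six6 and Lhx2, and the same factors are used again when retinal progenitors choose their fates. In the mature retina Pax6 is kept in amacrine, ganglion and horizontal cells, Six3, Six6, Meis1 and Meis2 in cells of the inner retina, Sox2 in Mueller glia and cholinergic amacrine cells, Lhx2 and Rax in Mueller glia, and Prox1 in horizontal cells and some bipolar and amacrine cells. A gene can differ between strains because its own alleles act differently (cis), in which case the difference persists between the 2 alleles of an F1 cell, or because the factors around it differ (trans), in which case the F1 alleles are equal.

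The 250 bases before the annotated starts of Six6, Sox2 and Meis1, the members whose F1 alleles differed, are printed with those of Pax6, whose strain difference in count equivalents (estimated fragment counts) was not seen between alleles on that scale. They are the C57BL/6J reference (NCBI37, also called mm9), read 5′ to 3′ along the gene, at chr12:74040461-74040710 (plus strand) for Six6, chr3:34548677-34548926 (plus) for Sox2, chr11:18918962-18919211 (minus) for Meis1 and chr2:105508803-105509052 (plus) for Pax6. Capitals mark matches to any of 4 binding cores searched on both strands: TAATTA for homeodomains, TGACAG for MEIS factors, ACAATG for SOX factors and TGATAC for sine oculis factors.
Six6: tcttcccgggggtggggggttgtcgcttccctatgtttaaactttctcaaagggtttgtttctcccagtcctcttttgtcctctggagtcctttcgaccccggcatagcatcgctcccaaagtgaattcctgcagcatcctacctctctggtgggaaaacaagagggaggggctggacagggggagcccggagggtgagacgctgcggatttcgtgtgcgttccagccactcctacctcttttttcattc
Sox2: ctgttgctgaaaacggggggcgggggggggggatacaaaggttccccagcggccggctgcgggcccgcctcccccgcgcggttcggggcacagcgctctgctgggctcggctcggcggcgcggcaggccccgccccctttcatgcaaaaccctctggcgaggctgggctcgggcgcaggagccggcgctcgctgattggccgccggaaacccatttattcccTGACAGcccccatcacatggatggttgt
Meis1: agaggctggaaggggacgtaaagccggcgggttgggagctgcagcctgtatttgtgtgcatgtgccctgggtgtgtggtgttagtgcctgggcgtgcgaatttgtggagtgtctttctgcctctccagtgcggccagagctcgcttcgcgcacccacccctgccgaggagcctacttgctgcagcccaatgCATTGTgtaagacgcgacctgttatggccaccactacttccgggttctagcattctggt
Pax6: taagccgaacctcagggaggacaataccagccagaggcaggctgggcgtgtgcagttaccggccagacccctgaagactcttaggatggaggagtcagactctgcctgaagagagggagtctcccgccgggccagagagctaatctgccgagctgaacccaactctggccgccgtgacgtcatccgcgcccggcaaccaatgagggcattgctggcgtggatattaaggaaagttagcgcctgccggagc
The Sox2 window holds 1 MEIS core, beginning 28 bases before the start, and the Meis1 window holds 1 SOX core, on the opposite strand, beginning 59 bases before it. Of 21418 windows of the same length before autosomal protein-coding genes, 15.0% hold the MEIS core, 8.99% the SOX core, 4.61% the homeodomain core and 4.17% the sine oculis core. Six6 and Pax6 have no match to these letters in these windows. The guanine and cytosine content was 55.2% for Six6, 70.8% for Sox2, 59.2% for Meis1 and 60.8% for Pax6, and the median over all windows was 54.4%.

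All 9 regulators were still expressed in the adult retina, from Six6, which lay above 50.3% of expressed autosomal genes, to Pax6, which lay near the top. Levels between genes are given as FPKM, the authors' estimate of fragments per unit of transcript length and of sequencing depth, and in F1 libraries as the mean of both alleles. Pax6, the paired-box factor of the eye field, had a mean of 218 FPKM ± 31.3 (SD, n = 12 libraries), above 99.2% of 14176 expressed autosomal genes. Rax, the retina and anterior neural fold homeobox gene, came next at 46.7 ± 3.4 FPKM, followed by the TALE homeobox gene Meis2 at 39.2 ± 2.64 and Six3 at 32.3 ± 5.3 FPKM. Meis1 was at 21.8 ± 1.72 FPKM and the prospero homeobox gene Prox1 at 21.4 ± 1.83 FPKM.

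The LIM homeobox gene Lhx2 had a median of 9.81 FPKM (8.55 to 11.6), and the means were 6.9 ± 1.09 FPKM for Sox2 and 6.81 ± 0.472 FPKM for Six6. In this order only Pax6 and Rax, and Prox1 and Lhx2, were neighbours whose 12 libraries did not overlap. Rax, Meis2, Six3 and Meis1 each overlapped the next in line, as did Lhx2 and Sox2, so pooled ranges do not separate these neighbours. Within every single library, though, Rax lay above Meis2, Six3 above Meis1 and Lhx2 above Sox2. Members further apart were separated by their pooled ranges: Rax and Meis2 lay wholly above Meis1 and Prox1, and Lhx2 wholly above Six6. By the ratio of the highest to the lowest library, Six3 varied most (1.91-fold, 23.3 to 44.6 FPKM) and Six6 least (1.29-fold, 5.97 to 7.71 FPKM).

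**Figure D1:**
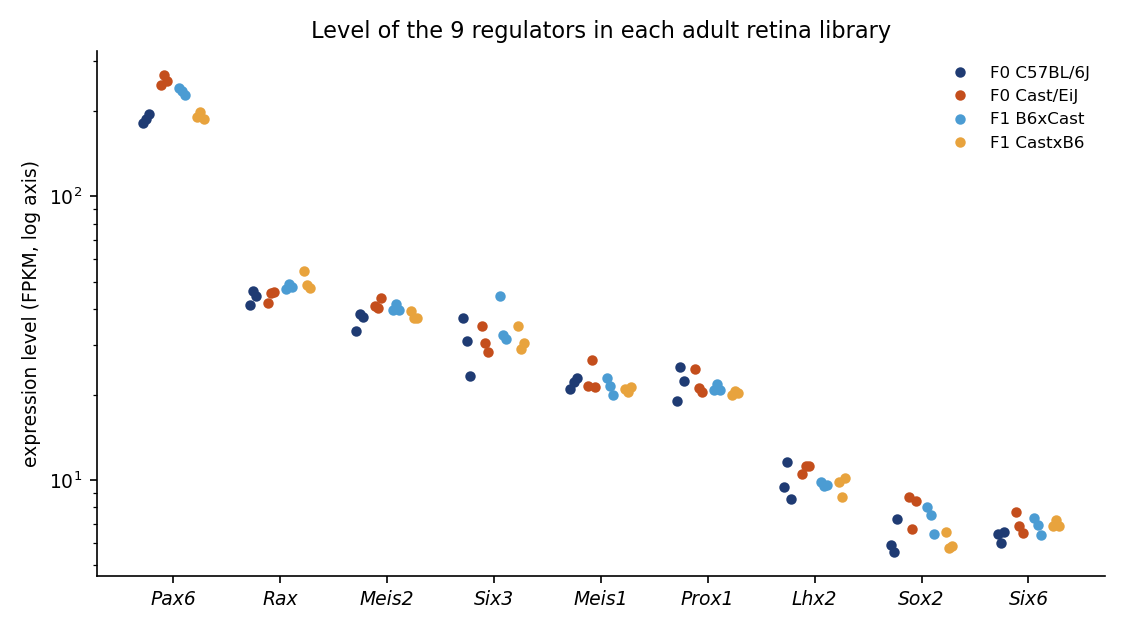
Expression level (FPKM, log axis) of the 9 regulators, ordered by mean, in each of the 12 libraries, coloured by group. Pax6 stands above all others in every library, at 181 to 269 FPKM, and Sox2 and Six6 lie lowest, between 5.58 and 8.73 FPKM.

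The depth of evidence differed between the members because reads shared between transcripts or genes are divided by a model. Unique hits, the read pairs that match only 1 gene (in F1, only 1 allele of it), made up between 46.2% and 79.6% of the F0 count equivalents of 8 members. Count equivalents are the authors' estimated fragment counts per gene after scaling between libraries. For Six3 the share was 2.16%: its F0 libraries had 838 to 1410 count equivalents but only 31 to 38 unique hits in C57BL/6J and 13 to 16 in Cast/EiJ. Six3 (NCBI37 chr17:86012948-86031153) shares its strand and locus with a further protein-coding entry without a symbol, ENSMUSG00000093450, and also overlaps Six3os1 and the noncoding ENSMUSG00000093460 on the other strand.

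Every Six3 value is therefore uncertain. In the same build Pax6 spans chr2:105509053-105543317, Meis2 chr2:115688800-115891575, Lhx2 chr2:38194801-38225253, Sox2 chr3:34548927-34551383, Meis1 chr11:18780433-18918961, Six6 chr12:74040711-74047081 and Prox1 chr1:191941917-191994559. Among the F1 libraries the mean number of allele-specific hits per library ran from 55.8 for Six3 and 133 for Lhx2 to 2900 for Prox1 and 3770 for Pax6. The libraries do not record strand, so reads from Six6 and the antisense gene 4930447C04Rik, whose exons overlap over 139 bases, cannot be told apart there, nor can those of Rax and Raxos1 over 818 bases or of Pax6 and Elp4 over 5542 bases.

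Between the parental strains, 1 of the 9 regulators passed the test. This comparison asks how far 2 strains that diverged in the wild differ in the adult level of these genes. Pax6 had 4920, 4910 and 4920 count equivalents in F0 C57BL/6J and 5770, 6260 and 6030 in F0 Cast/EiJ. The groups did not overlap, and the mean rose from 4917 ± 5.77 to 6020 ± 245 (SD, n = 3). The tables give 3 significant digits, so the spread within C57BL/6J is that of rounding. Pax6 was 1.22-fold higher in Cast/EiJ, a log2 difference of 0.29 (SE 0.06, limma adjusted p = 0.0067). Over all 14452 genes tested, 33.8% were called, 17.2% of all as higher and 16.6% as lower in Cast/EiJ, and 1 of 9 lies below that share. The median log2 difference was 0.16 over the members and 0.032 over all genes tested.

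Sox2, the SOXB1 factor of progenitors and glia, had the largest estimate without passing the test. Its F0 C57BL/6J libraries had 268, 257 and 333 count equivalents and its F0 Cast/EiJ libraries 397, 308 and 389, so 1 library of each strain lay within the other's range. The difference was 1.27-fold (log2 0.35, SE 0.14, adjusted p = 0.082). It passed when F0 C57BL/6J replicate 3 or F0 Cast/EiJ replicate 2 was left out, with an adjusted p of 0.042 in either case.

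Meis2 had 1900, 1930 and 1930 count equivalents in F0 C57BL/6J and 2040, 2250 and 2240 in F0 Cast/EiJ. The libraries did not overlap but the difference, 1.13-fold (log2 0.18, SE 0.07), missed the threshold with an adjusted p of 0.064. Without F0 Cast/EiJ replicate 1 the adjusted p of Meis2 was 0.041. Six6 had 659, 619 and 676 count equivalents in F0 C57BL/6J against 792, 715 and 677 in F0 Cast/EiJ, a log2 difference of 0.16 (SE 0.09, adjusted p = 0.18). Pax6, Meis2 and Six6 were the 3 members whose F0 groups did not overlap. Of all genes tested 48.0% had no overlap.

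For the other 5 members no difference was called. The log2 difference was 0.17 for Lhx2 (SE 0.1), −0.16 for Prox1 (SE 0.1), 0.03 for Meis1 (SE 0.08), 0.03 for Rax (SE 0.08) and 0.01 for Six3 (SE 0.17), with adjusted p from 0.23 to 0.96 by limma. With 3 libraries a strain, differences of this size were not resolved, which does not show that the strains were equal. Counted on unique hits alone with edgeR, Six3 was instead lower in Cast/EiJ (log2 −0.95, adjusted p = 0.0055, in a test that called 37.8% of all genes), from 13 to 16 hits per library against 31 to 38. Adding the count equivalents of its same-strand duplicate to Six3, an alternative chosen after seeing the data, gave a log2 difference of 0.15 (SE 0.12, adjusted p = 0.35).

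**Figure D2:**
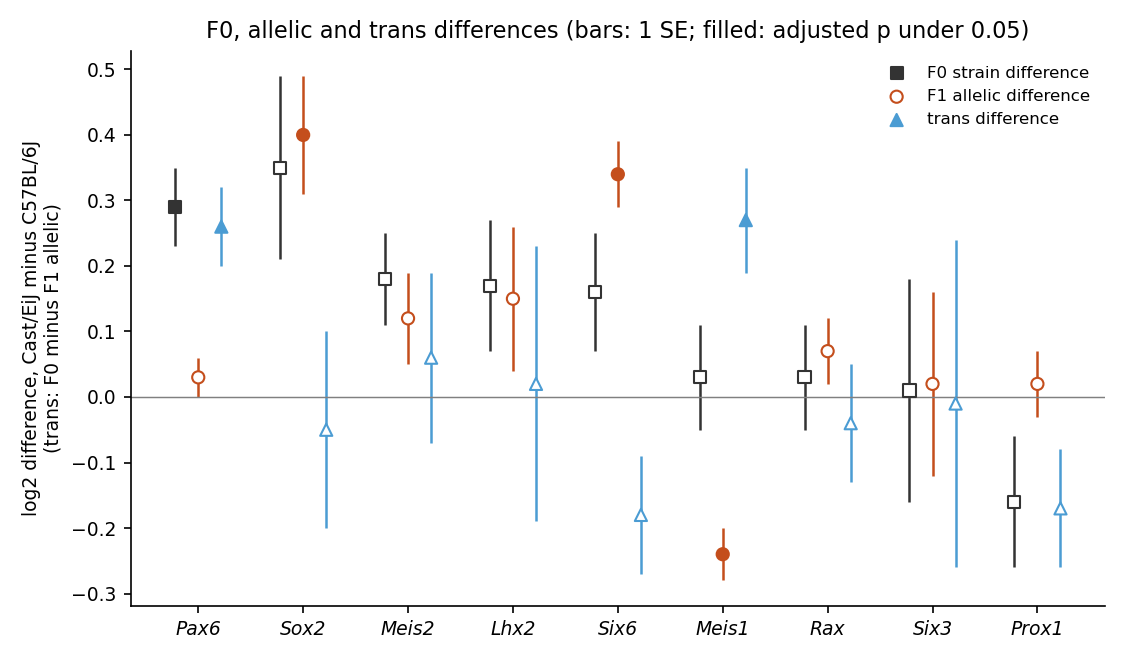
Log2 differences of the 9 regulators between F0 strains (squares), between F1 alleles (circles) and of the first minus the second (triangles), with bars of 1 SE and filled symbols for an adjusted p under 0.05. Pax6 is filled for the F0 and trans differences, Sox2 and Six6 for the allelic difference and Meis1 for the allelic and trans differences.

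Several summed cell-type markers also differed in range between the strains, and in bulk tissue fewer cells of a type cannot be told apart from less RNA per cell. The summed level of 11 amacrine markers was 380 to 434 FPKM in F0 C57BL/6J and 433 to 460 FPKM in F0 Cast/EiJ, where 4 of the 11 were called higher and 0 lower. Over all genes 17.2% were called higher and 16.6% lower. The summed level of 10 ganglion cell markers was 349 to 388 FPKM in C57BL/6J and 256 to 276 FPKM in Cast/EiJ, with 5 of 10 called lower and 0 higher. That of 10 Mueller glia markers was 1360 to 1620 FPKM in C57BL/6J and 1220 to 1370 FPKM in Cast/EiJ, with 4 called lower and 1 higher. The 5 horizontal cell markers summed to 16.5 to 21.1 FPKM in C57BL/6J and 14.3 to 16.4 FPKM in Cast/EiJ, with 1 called lower. All markers of these 4 lists were above 0.1 FPKM in every group. The 6 pigment epithelium markers summed to 6.78 to 8.41 FPKM in C57BL/6J and 2.48 to 3.54 FPKM in Cast/EiJ. Most of this was Ttr (mean 6.44 and 1.9 FPKM), and Mlana went the other way (0.198 and 0.495 FPKM). Of the 6, 2 lay below 0.1 FPKM in C57BL/6J and 3 in Cast/EiJ, and of 3 tested 1 was called lower and 0 higher. The 4 astrocyte and optic nerve markers summed to 11.3 to 11.9 and 8.3 to 9.96 FPKM. The 8 rod markers summed to 17500 to 17900 FPKM in C57BL/6J and 18700 to 19600 FPKM in Cast/EiJ. The part of these lists in the Pax6 difference was not tested. Lens markers summed to at most 15.7 FPKM in any library.

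Between the F1 alleles, 3 of the 9 regulators differed: Six6 and Sox2 were higher from the Cast/EiJ allele and Meis1 from the C57BL/6J allele. Each F1 library measures both alleles in the same cells, so cell composition and the surrounding factors are shared. Six6, a sine oculis homeobox gene of the optic cup and inner retina, had a lowest, median and highest value of 586, 614 and 658 count equivalents from the C57BL/6J allele and of 705, 790.5 and 838 from the Cast/EiJ allele. The 2 sets of 6 did not overlap. The Cast/EiJ allele was 1.26-fold higher (log2 0.34, SE 0.05, limma adjusted p = 2.3e-05). Of 13414 genes tested 47.0% were called, 23.5% of all with the Cast/EiJ allele higher and 23.5% with it lower, and 3 of 9 lies below that share.

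Unique hits gave Six6 the same direction, 1879 for the C57BL/6J and 2332 for the Cast/EiJ allele over the 6 libraries. The Cast/EiJ share was 54.1% to 56.2% by library, and 95% Wilson intervals ran from 49.7% to 58.3% for the lowest and from 52.6% to 59.7% for the highest. The difference was 0.35 in F1 B6xCast alone (adjusted p = 0.00087) and 0.33 in F1 CastxB6 alone (adjusted p = 0.0014). The gene on the opposite strand, 4930447C04Rik, had the reverse pattern, with 1434 hits from the C57BL/6J and 929 from the Cast/EiJ allele and a log2 difference of −0.53 (SE 0.09, limma adjusted p = 0.00017). It was chosen for mention after its values were seen.

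Sox2 had a lowest, median and highest value of 215, 260.5 and 301 count equivalents from the C57BL/6J allele and of 298, 319.5 and 415 from the Cast/EiJ allele. The sets touched only at their edges, and within each of the 6 libraries the Cast/EiJ allele was higher. It was 1.32-fold higher overall (log2 0.4, SE 0.09, limma adjusted p = 0.00099). Unique hits divided 564 to 733, and the Cast/EiJ share was 54.3% to 58.5% by library. The estimate for the alleles was close to that for the strains, 0.4 and 0.35, and the difference of the 2, −0.05 (SE 0.15), was far within its error. Sox2 lies inside the transcribed span of the noncoding Sox2ot on the same strand, with no shared exon, and Sox2ot had an allelic log2 difference of −0.06 (SE 0.14, adjusted p = 0.78).

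Meis1, a TALE homeobox gene whose product pairs with PBX proteins, had the opposite sign. From the C57BL/6J allele it had 1130, 1195 and 1270 count equivalents (lowest, median, highest), and from the Cast/EiJ allele 937, 1030 and 1070. The alleles did not overlap, and the Cast/EiJ allele was lower in 6 of 6 libraries by 1.18-fold (log2 −0.24, SE 0.04, limma adjusted p = 0.00019). Its unique hits, 2078 and 1771, gave the Cast/EiJ allele a share of 44.0% to 48.3% by library. Six6 and Meis1 were the 2 members whose alleles did not overlap over the F1 libraries, and 25.5% of all genes tested had none. Six6, Sox2 and Meis1 kept 1 direction in 6 of 6 libraries, as did 42.0% of all genes tested.

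**Figure D3:**
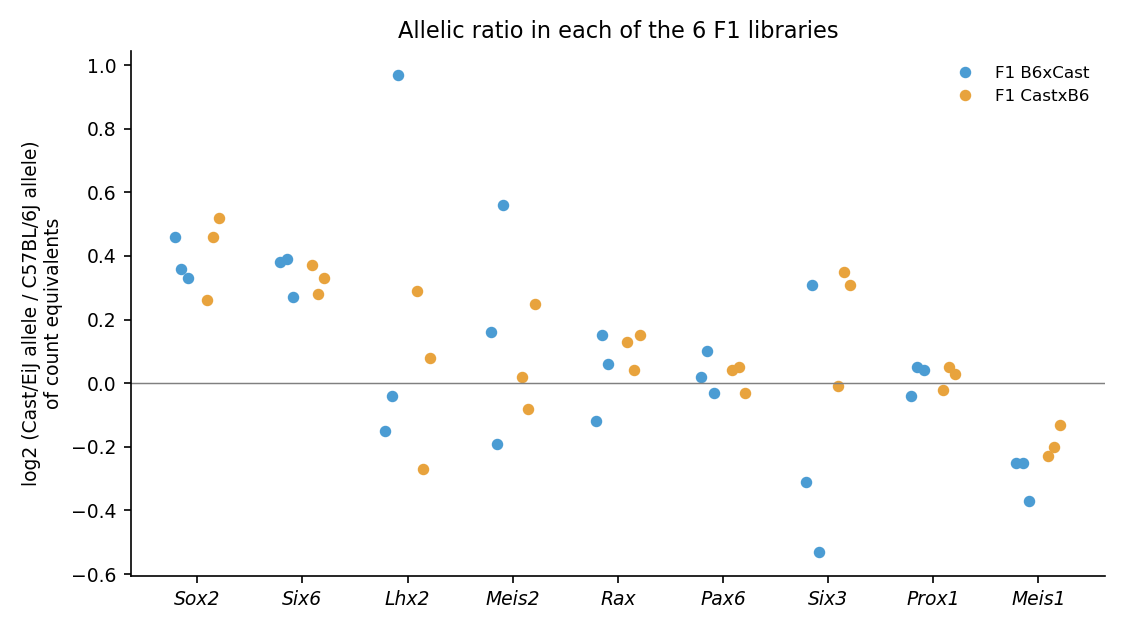
Allelic log2 ratio in count equivalents (above 0 where the allele from Cast/EiJ was higher), for each of the 6 F1 libraries (blue, F1 B6xCast; orange, F1 CastxB6). Sox2 and Six6 lie above 0 in all 6, from 0.26 to 0.52 and from 0.27 to 0.39, Meis1 lies below 0 in all 6, and Lhx2, Meis2 and Six3 scatter on both sides.

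The Meis1 call held on unique hits but not on the scale that corrects for transcript length. On the authors' FPKM estimates the C57BL/6J allele had 17.7 to 22.8 FPKM and the Cast/EiJ allele 18.1 to 24.9, and the log2 difference was 0.0 (SE 0.08, limma adjusted p = 0.98). On that scale 43.3% of all genes were called between alleles. The ratio of count equivalents to FPKM, which follows the mean length of the isoforms in the estimate, was 56.6 ± 1.2 for the C57BL/6J allele and 49.0 ± 2.6 for the Cast/EiJ allele in F1 B6xCast (SD, n = 3). In F1 CastxB6 it was 57.7 ± 6 and 48.1 ± 8.1. For Six6 this ratio was the same for both alleles in both crosses after rounding, and its allelic difference was 0.34 on either scale.

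Pax6 did not differ between alleles in count equivalents but did in FPKM. The C57BL/6J allele had 4870, 5285 and 6230 count equivalents (lowest, median, highest) and the Cast/EiJ allele 4880, 5505 and 6330. The ranges were nearly the same, and the log2 difference was 0.03 (SE 0.03, limma adjusted p = 0.54). Unique hits divided 11162 to 11437, and the Cast/EiJ share stayed between 50.1% and 51.3% in the 6 libraries. On the FPKM scale the Cast/EiJ allele had 205 to 262 and the C57BL/6J allele 169 to 222, with the Cast/EiJ allele higher by 0.24 on the log2 scale (SE 0.04, adjusted p = 0.00017).

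The count equivalents per FPKM unit of Pax6 were 27.5 ± 1.3 for the C57BL/6J and 23.9 ± 0.27 for the Cast/EiJ allele in F1 B6xCast (SD, n = 3). In F1 CastxB6 they were 28.2 ± 1.5 and 24.0 ± 0.45, and in F0 26.2 ± 1 for C57BL/6J and 23.4 ± 0.21 for Cast/EiJ. The F0 difference of Pax6 was correspondingly 0.45 in FPKM (SE 0.08, adjusted p = 0.0079) and 0.29 in count equivalents. The FPKM scale called 28.1% of all genes between F0 strains.

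**Figure D4:**
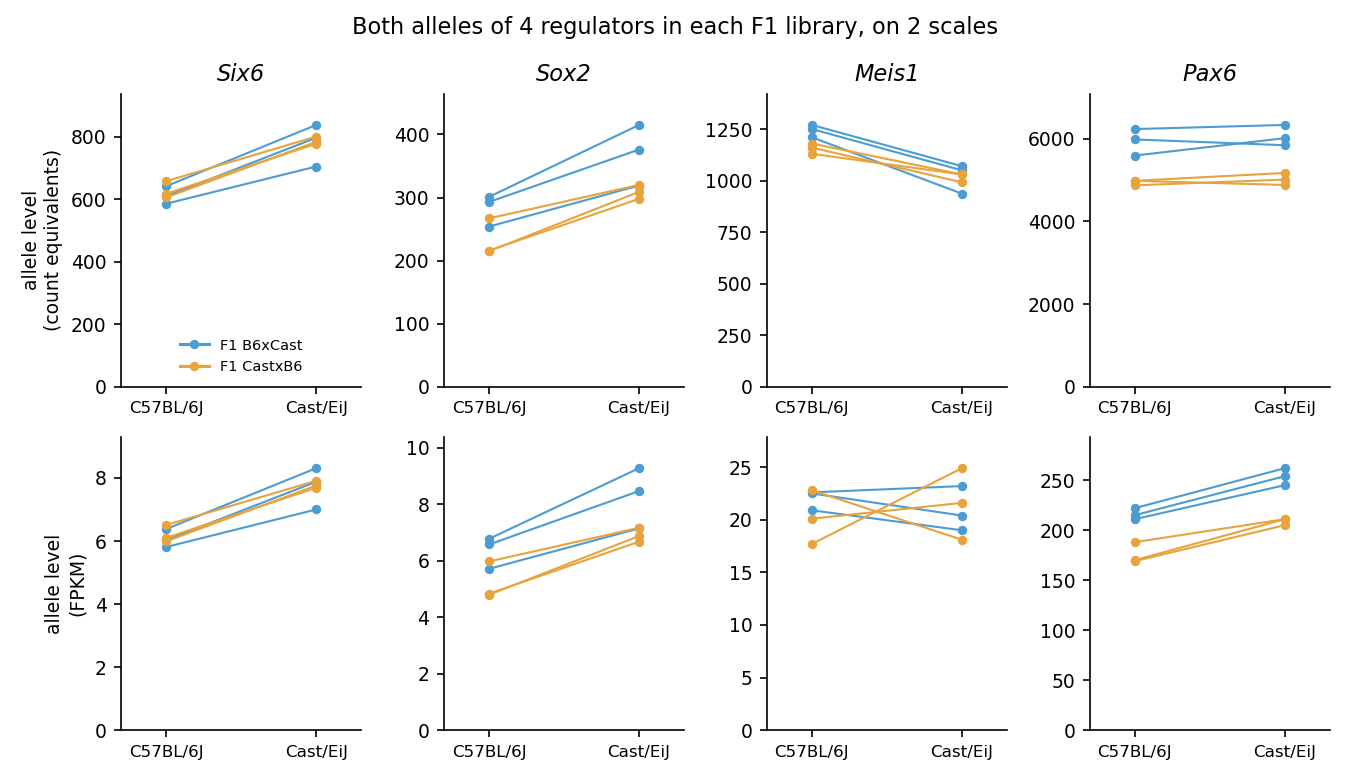
Level of the C57BL/6J and the Cast/EiJ allele of Six6, Sox2, Meis1 and Pax6, a line joining the alleles of each F1 library (blue, F1 B6xCast; orange, F1 CastxB6), in count equivalents (top) and FPKM (bottom). Six6 and Sox2 rise in all 6 libraries on both scales, Meis1 falls in all 6 only in count equivalents, and Pax6 rises in all 6 only in FPKM.

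The remaining 5 members were not called between alleles. The log2 differences were 0.15 for Lhx2 (SE 0.11), 0.12 for Meis2 (SE 0.07), 0.07 for Rax (SE 0.05), 0.02 for Prox1 (SE 0.05) and 0.02 for Six3 (SE 0.14), with adjusted p from 0.19 to 0.93. The Lhx2 estimate came from F1 B6xCast replicate 3, where the Cast/EiJ allele had 581 and the C57BL/6J allele 296 count equivalents. In the other 5 libraries its log2 ratio ran from −0.27 to 0.29, and without that library the estimate was −0.03. Unique hits for Lhx2 divided 402 to 395.

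Meis2 had more hits from the Cast/EiJ allele in 6 of 6 libraries, 1447 against 1606 in all, and edgeR on these hits called it (log2 0.15, adjusted p = 0.027, where 43.0% of all genes were called). Allele-specific hits were 11.2% of the F1 count equivalents of Meis2, against 54.6% for Prox1. Leaving out F1 B6xCast replicate 2 also brought Meis2 past the threshold (log2 0.21, limma adjusted p = 0.02). Of 12 fits that left out a library this was the only 1 to call it. Without F1 B6xCast replicate 3 the estimate fell to 0.02 (limma adjusted p = 0.81). Prox1 had 8805 hits for the C57BL/6J and 8591 for the Cast/EiJ allele.

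The F0 and allelic differences were unequal for 2 members, Pax6 and Meis1. The trans difference subtracts the allelic from the F0 difference within a single model. For Pax6 it was 0.26 (SE 0.06, limma adjusted p = 0.0062): the strains differed and the alleles, in count equivalents, did not. For Meis1 it was 0.27 (SE 0.08, adjusted p = 0.025). Its alleles differed, while its F0 libraries had 1100, 1120 and 1160 count equivalents in C57BL/6J and 1100, 1270 and 1100 in Cast/EiJ. These overlapped apart from the Cast/EiJ library at 1270. Of 13414 genes 5.64% were called with a positive and 8.31% with a negative sign. On the FPKM scale neither was called, with 0.21 (SE 0.07, adjusted p = 0.072) for Pax6 and 0.06 (SE 0.15, adjusted p = 0.85) for Meis1.

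The Meis1 call also depended on single libraries. It was lost without F0 C57BL/6J replicate 1 (log2 0.25, adjusted p = 0.06) or 2 (0.27, 0.059). It was also lost without F1 CastxB6 replicate 1 (0.26, 0.061) or 2 (0.27, 0.057). Without F0 Cast/EiJ replicate 2 the estimate itself fell, to 0.2 (adjusted p = 0.085). That of Pax6 was kept in all 12 such fits, with an adjusted p of 0.0051 to 0.023. For Six6 the trans difference was −0.18 (SE 0.09, adjusted p = 0.2) and for Prox1 −0.17 (SE 0.09, adjusted p = 0.21). Of these fits Prox1 passed only that without F0 C57BL/6J replicate 1 (−0.26, adjusted p = 0.04).

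The reciprocal crosses showed no called difference in any member, either in which parent's allele was higher or in total level. The maternal minus the paternal allele ranged from −0.2 for Six3 (SE 0.14) to 0.11 for Lhx2 (SE 0.11) on the log2 scale, and limma adjusted p was at least 0.98. No member reached an unadjusted p under 0.05, and edgeR on unique hits called 0 of 9 as well. Of 13414 genes 0.492% were called, 0.179% of all with the maternal and 0.313% with the paternal allele higher.

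The total level of Pax6 nevertheless lay apart between the crosses. The F1 B6xCast libraries had 6280, 5800 and 5910 count equivalents (mean of both alleles) and the F1 CastxB6 libraries 4940, 5075 and 4930. The former overlapped F0 Cast/EiJ (5770 to 6260), the strain of their mothers, and the latter lay just above F0 C57BL/6J (4910 to 4920), the strain of theirs. In FPKM, however, F1 B6xCast (228 to 242) lay wholly below F0 Cast/EiJ (248 to 269). A link to the mother's strain was not tested. The log2 difference of F1 CastxB6 from F1 B6xCast was −0.27 (SE 0.05). It failed the correction over 14967 genes, with a limma adjusted p of 0.58, although all 3 libraries of one cross lay below all 3 of the other. Both alleles of Pax6 shared the shift, with the Cast/EiJ allele at 5840 to 6330 in F1 B6xCast and 4880 to 5170 in F1 CastxB6.

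The amacrine marker sum was 439 to 465 FPKM in F1 B6xCast and 441 to 462 FPKM in F1 CastxB6, so that it did not separate the crosses. The ganglion cell sum was 308 to 352 FPKM and 330 to 357 FPKM. Of the low marker sums, that of astrocytes and optic nerve lay apart, at 9.35 to 10.3 FPKM in F1 B6xCast and 7.46 to 8.05 in F1 CastxB6. The lens sum lay apart in the other direction, at 6.66 to 8.67 and 8.81 to 15.7 FPKM. The remaining sums overlapped, and the part of any list in the Pax6 shift was not tested. Prox1 was the other member whose crosses did not overlap, with 2855, 2775 and 2695 count equivalents in F1 B6xCast and 2490, 2550 and 2565 in F1 CastxB6 (log2 −0.13, SE 0.04, adjusted p = 0.92). Of all genes tested 10.8% had crosses that did not overlap, and only 0.0401% were called. The unadjusted limma p was 0.00059 for Pax6, 0.017 for Prox1 and 0.031 for Sox2, and the share of all genes this low was not counted. Sox2 was at 358, 334.5 and 286.5 in F1 B6xCast and 293.5, 257 and 262 in F1 CastxB6 (log2 −0.26, SE 0.1, adjusted p = 0.92).

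**Figure D5:**
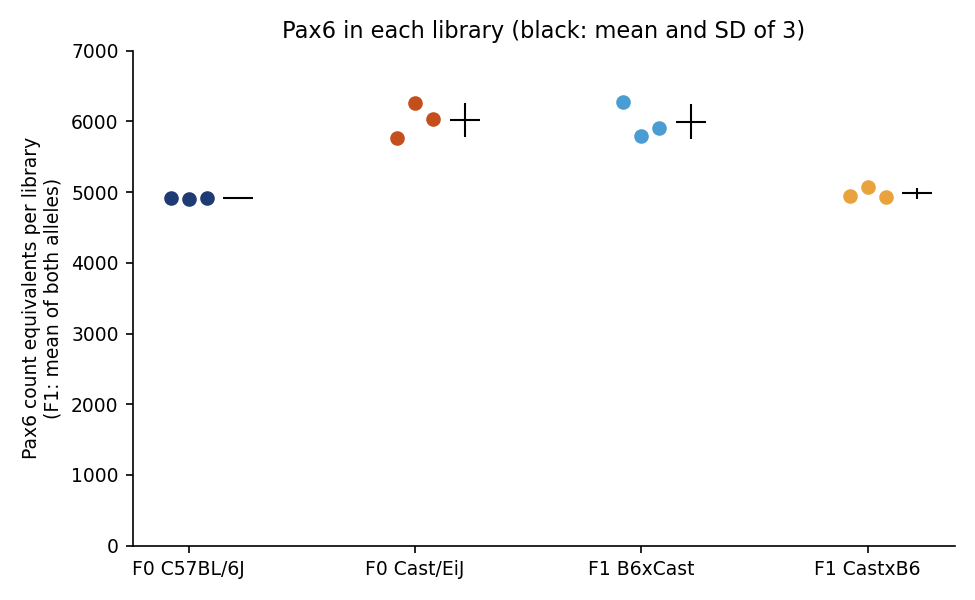
Pax6 count equivalents in each library by group, with the mean and SD of 3 in black; F1 values are the mean of both alleles. F0 Cast/EiJ and F1 B6xCast lie between 5770 and 6280, and F0 C57BL/6J and F1 CastxB6 between 4910 and 5075.

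The relatives and binding partners of these factors, such as the EYA, PBX, LDB and TLE cofactors and further sine oculis, LHX and MEIS genes, were called in both directions. Of 33 tested between F0 strains, 7 were called higher and 6 lower in Cast/EiJ, with a median of 0.02 against 0.03 over all genes, and the shares over all genes were 17.2% and 16.6%. Of 29 tested between alleles, 2 were called higher and 6 lower from Cast/EiJ, below the 47.0% called over all genes. Eya4, a sine oculis cofactor with phosphatase activity, had the largest differences upwards. It had 2.93 to 6.9 count equivalents in F0 C57BL/6J and 27.3 to 39.7 in F0 Cast/EiJ (log2 2.67, SE 0.36, limma adjusted p = 0.00057), and its alleles had 8 hits from C57BL/6J and 106 from Cast/EiJ (log2 4.03, SE 0.45, adjusted p = 1.2e-06).

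Eya2 had the largest allelic difference downwards (log2 −0.83, SE 0.2, limma adjusted p = 0.0026), from 155 hits for C57BL/6J and 80 for Cast/EiJ. Eya4 and Eya2 are low genes whose fold changes rest on few reads.

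Of 22 other genes of the eye-field and optic-cup network, 2 were called higher and 1 lower between F0 strains, and of 19 tested between alleles 2 were higher and 5 lower from Cast/EiJ. Both counts lie below the shares over all genes, 33.8% and 47.0%. Mab21l1 was lower in F0 Cast/EiJ at 2570 to 2720 against 2930 to 3110 count equivalents (log2 −0.2, SE 0.06, limma adjusted p = 0.032). Vax2, which specifies ventral retina, had the lower Cast/EiJ allele, with 1221 hits from C57BL/6J and 708 from Cast/EiJ (log2 −0.76, SE 0.08, adjusted p = 1.1e-06). Sox4 had the higher Cast/EiJ allele (log2 0.45, SE 0.07, adjusted p = 8.7e-05). Among the cell-type markers the largest calls were Cabp5 of bipolar cells, higher in F0 Cast/EiJ and from its allele (log2 1.34 and 1.46), Ttr of the pigment epithelium, lower in F0 Cast/EiJ (log2 −1.77), and Sncg of ganglion cells, lower from the Cast/EiJ allele (log2 −2.89). Sncg was not called between F0 strains, with means of 1160 count equivalents in C57BL/6J and 1100 in Cast/EiJ.

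The genes whose totals followed each called member most closely over the 12 libraries were found by the root mean square difference of centred log2 values among 10249 autosomal genes. For Pax6 they were Dlg5 (0.063) and Cnot6l (0.065), where Pax6 itself varied by 0.144. For Six6 they were Rbm39 (0.033) and Tmem33 (0.042), for Sox2 Mrpl40 (0.066) and H2afx (0.111), and for Meis1 Atrip (0.041) and Zfp623 (0.041). Six6 itself varied by 0.091, Sox2 by 0.217 and Meis1 by only 0.066, so a nearly flat gene also lies close to Meis1. The median over all genes was 0.197 for Pax6, 0.168 for Six6, 0.255 for Sox2 and 0.165 for Meis1. These are descriptions over 12 libraries that share strain and cross.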

How the data were processed

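Polyadenylated RNA from pooled retinas was sequenced by the authors as paired reads of 101 bases, without strand. Per the labels and the study's methods, reads were trimmed with Trim Galore 0.2.6 and aligned with Bowtie 0.12.9 to strain-specific transcriptomes (hybrid for F1) built on NCBI37 (mm9), and MMSEQ divided shared reads. The deposited tables hold count equivalents, a signal the authors scaled between libraries that is not whole reads, natural log expression (its exponential is FPKM) with a posterior SD from the authors' model, and unique-hit counts. A further table of the authors' own comparisons (posterior probabilities and a Bayes factor, beside copies of the expression values) was not used.

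F0 strains and F1 crosses were compared with limma 3.58.1 on log2(count equivalent + 1), with a mean-variance trend, for autosomal genes with at least 10 in at least 3 libraries. Alleles, trans and parent-of-origin differences came from a limma model of all F0 and F1 allele values with library as a random effect (correlation 0.1354), for genes averaging 10 or more allele-specific hits per F1 library. P-values were adjusted by Benjamini-Hochberg over all genes tested, with calls at 0.05. Fold changes are on the log2(value + 1) scale. Each F1 allele column was scaled like an F0 library, so that both alleles summed to 1.99 times F0 (median of 10337 genes), and F1 totals are given as the mean of both alleles rather than their planned sum, which the cross test used. Replicates are separate pools, and Wilson intervals cover counting error only. The scripts were tested on simulated data.

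The 9 members and all lists were chosen with earlier results of these data known. Named genes are the 9 members, the largest call in each direction from each list (some are not reported here), and the 2 genes closest in profile to each called member. Alternatives were other pseudocounts and filters, TMM, DESeq2 1.42.0 on rounded count equivalents, edgeR 4.0.16 on unique hits, log expression, a replicate block, single crosses and leaving out each library. Sequences came from the NCBI37 genome. Sox4 has 2 entries in the tables, of which 1 was tested.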

Additional observations from a re-analysis of the deposited data

Results flagged for a closer look

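Pax6 and Meis1 were singled out because their F0 strain difference and F1 allelic difference were unequal by the test of the difference itself, 0.26 and 0.27 on the log2 scale. The allelic log2 ratios of the 9 members over the 6 F1 libraries held no sample beyond Dixon's 95% critical value. F1 B6xCast replicate 3, the F1 library with the fewest unique hits (8808577), held the lowest or highest allelic ratio for 6 of the 9 members, against 1 to 3 of 9 in the other F1 libraries.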

How the results depend on the processing

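Over the alternatives of each comparison, the calls of Pax6 between F0 strains and of Six6 and Sox2 between alleles kept their direction and their side of the threshold. In F0 the number of members called was 2 with TMM factors (Meis2 added, log2 0.21), 2 with edgeR on unique hits (Six3 added) and 3 with the replicate block (Sox2 and Meis2 added, adjusted p = 0.02 and 0.024), and 1 to 2 when single libraries were left out. Six3 reversed to −0.95 on unique hits and −0.03 with DESeq2, and Rax to −0.17 on unique hits. Between alleles Six3 reversed to −0.18 in F1 B6xCast alone, −0.17 on unique hits and −0.08 in log expression, Lhx2 to −0.01 and −0.03 in the last 2, Prox1 to −0.03 on unique hits and Meis1 to 0.0 in log expression. In the trans test edgeR on unique hits called 1 member, Pax6 (log2 0.28, adjusted p = 0.02). Meis1, also at 0.28, missed the threshold there (adjusted p = 0.051). In log expression 0 members were called in the trans test and Six3 reversed to 0.14, and the parent-of-origin value of Six3 turned to 0.05 on unique hits. The cause was not tested.

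Leaving out single libraries gave log2 ranges through 0 for Six3 (−0.19 to 0.19), Rax (−0.02 to 0.07) and Meis1 (−0.03 to 0.07) between F0 strains and for Six3 (−0.1 to 0.11) and Lhx2 (−0.03 to 0.25) between alleles. In the trans test the ranges were −0.21 to 0.17 for Six3, −0.09 to 0.0 for Rax, −0.08 to 0.2 for Lhx2, −0.12 to 0.07 for Sox2 and −0.03 to 0.16 for Meis2, and 1 to 2 members were called. Over all genes such fits called 3258 to 4341 genes in F0, 5487 to 6374 between alleles, 1460 to 2032 in the trans test, 56 to 77 by parent of origin and 0 to 7 between crosses. Without a filter on low values 3161 genes were called in F0 against 4887, and 24 between crosses against 6, and edgeR called 39 by parent of origin against 66. Ranked by count equivalents, which are not per length, Prox1 came to place 2, Rax 4, Six3 5, Meis1 6, Six6 7, Lhx2 8 and Sox2 9.

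Same-numbered libraries correlated at 0.479, −0.051 and 0.094 in F0 and at −0.164, −0.179 and −0.07 in F1. F0 number 1 correlated best with its own number (other pairings at most −0.097), and F0 numbers 2 and 3 did not (other pairings up to 0.375). In F1 no number correlated best with its own. With 3 libraries a group, this does not settle whether the numbers pair the samples. The block raised the F0 calls from 4887 to 6376 genes. It left 3 members called between alleles, 2 in the trans test and 0 in the other tests. Allele-specific hits were fewest for Six3 and Lhx2, and between F0 strains unique hits were fewest for Six3 and Sox2.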
